A study of Mus musculus with 96 samples.

Results

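The daily time course of liver macrophages (LMs) from RevScapTKO mice was described from 12 RNA sequencing libraries of the 96 in the series. These were all the LM libraries that the labels gave to this genotype, with 3 at each of ZT4, ZT10, ZT16 and ZT22, and no measured value was used to choose them. Zeitgeber time (ZT) counts the hours after lights on, and lights went off at ZT12, so ZT4 and ZT10 lie in the light phase and ZT16 and ZT22 in the dark phase. RevScapTKO mice carried floxed alleles of Nr1d1, Nr1d2 and Scap and received a virus that made Cre recombinase from a hepatocyte promoter, so that the deletion was directed to hepatocytes and not to the LMs themselves. All of the mice were male C57BL/6J adults that had eaten a high fat and sucrose diet for 4 weeks. Control mice carried floxed alleles and a virus encoding GFP, and RevDKO mice had the hepatocyte deletion of Nr1d1 and Nr1d2 with Scap left in place. Their LM libraries, 12 of each genotype, share the table of the RevScapTKO libraries and enter only where the time courses were compared. The labels do not say whether each library came from a separate mouse or from pooled mice, so the p-values measure the spread between libraries.

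In most cells, BMAL1 (encoded by Arntl) and CLOCK switch on the Per, Cry and Nr1d genes, whose protein products in turn repress that activity and thereby close a daily feedback loop. REV-ERBα and REV-ERBβ, encoded by Nr1d1 and Nr1d2, repress Arntl and many genes of lipid metabolism. SCAP escorts the SREBP transcription factors to the Golgi, where they are released to drive the synthesis of cholesterol and fatty acids. Kupffer cells, the resident macrophages of the liver, lie in the sinusoids next to endothelial, stellate and parenchymal cells. The study asked how the daily program of LMs changes when these regulators are lost from the neighbouring hepatocytes, and the comparison of the 4 times asks what daily program is measured in LMs of the mice that lost all 3 genes.

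The values are RPKTM, reads per kilobase of transcript per 10000000 mapped reads, which the authors had quantile normalized over the 36 LM libraries of 3 genotypes, so that every library holds the same set of values in a different order. The sequencing depth is therefore unknown. Of 25095 gene symbols, 12153 exceeded 5 RPKTM in at least 3 of the 12 libraries and were tested. Correlations between the 12 libraries, across transcripts, lay between 0.754 and 0.948. After quantile normalization a value is set by its rank within the library. ZT22 replicate 3 stood apart at the top of those ranks. Alb, the plasma protein of hepatocytes, held a value equal to 13.7% of the column sum, against 0.408% to 1.25% in the other 11 libraries. Lars2 held 1.25% there, against 13.6% to 13.7% in the other 11. Across the genes tested its median correlation with the other libraries was 0.892, within the 0.849 to 0.9025 of those libraries. Its mean log2 hepatocyte marker level was 11.12, and that of ZT22 replicate 1 was 10.91. ZT10 replicate 1 had the lowest hepatocyte marker level and the highest Kupffer cell marker level. Defining Kupffer cell markers were present in every library, with Clec4f at 1159 to 7571 RPKTM and Timd4 at 62.8 to 397 RPKTM. Hepatocyte markers were also present in every library. In bulk libraries fewer cells of a type and less RNA per cell cannot be told apart.

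The targeted genes were measured in the LMs as well. Scap was 136, 90.2 and 135 RPKTM at ZT4, 78.9, 96.2 and 123 at ZT10, 121, 114 and 147 at ZT16 and 92.1, 82.2 and 149 at ZT22. The libraries of the 4 times overlapped (limma F test, adjusted p = 0.995). Over the 12 libraries Scap averaged 114 ± 25.1 RPKTM in RevScapTKO LMs and 119 ± 53.1 RPKTM in Control LMs, whereas in the hepatocyte libraries it averaged 209 ± 63.5 RPKTM in RevScapTKO and 495 ± 73.1 RPKTM in Control (SD, n = 12 libraries each). In hepatocytes the highest RevScapTKO value, 299 RPKTM, lay under the lowest Control value, 395 RPKTM. Averaged over the 4 times, Nr1d1 and Nr1d2 transcripts were not lower in RevScapTKO than in Control hepatocytes, at 140.3 ± 62.9 against 90.7 ± 119 RPKTM and 353 ± 62.5 against 228 ± 141 RPKTM. These SDs include the differences between times. Nr1d1 was lower in RevScapTKO at ZT4 (194.8 against 257.0 RPKTM) and Nr1d2 at ZT10 (379.7 against 392.0 RPKTM), and each was higher at its other times. These values count the whole transcript, so the loss of single exons cannot be read from them. The study itself reports a marked reduction of both genes in hepatocytes. The LM and hepatocyte tables were normalized apart, and levels set across them are descriptions.

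No gene passed the test of a difference among the 4 times in RevScapTKO LMs. By limma's F test at an adjusted p under 0.05, 0 of 12153 genes (0%) were called, 563 (4.63%) had an unadjusted p under 0.05, and the smallest adjusted p was 0.116. The 6 comparisons of one time with another likewise called 0 genes each (0%). Unadjusted p-values under 0.05 were fewest between ZT10 and ZT4, at 252 genes (2.07%), and between ZT22 and ZT16, at 416 (3.42%). They were most frequent between ZT22 and ZT10, at 815 (6.71%), and between ZT22 and ZT4, at 810 (6.67%). ZT16 differed from ZT4 in 430 genes (3.54%) and from ZT10 in 641 (5.27%) at that level. Without regard to any p, the 3 libraries of one time lay all above or all below the 3 of the other in 6.17% of genes for ZT10 and ZT4, 9.84% for ZT16 and ZT4, 11.7% for ZT22 and ZT4, 10% for ZT16 and ZT10, 10.6% for ZT22 and ZT10 and 7.16% for ZT22 and ZT16. In every pair the 95% interval of a gene's difference reached, at the median, 0.957 to either side on the log2(RPKTM + 1) scale with 3 libraries per time. With all 36 LM libraries in the fit, which share 1 estimate of the spread, 9 genes (0.0741%) passed the same F test for RevScapTKO (Cyp2c50, Bgn, Cyp2c54, Mup10, Mup22, Gm2083, Gdf2, Cyp2c70 and Slc27a5).

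The genes with the smallest p-values included cytochrome P450, bile acid and matrix genes with higher values in the dark phase. Of the 20 genes with the smallest F test p, 19 were highest at ZT22 and 1 at ZT16, and 13 were lowest at ZT10 and 7 at ZT4. In 16 of the 20, all 6 libraries of ZT16 and ZT22 lay above all 6 libraries of ZT4 and ZT10, a separation found in 66 of 12153 genes (0.543%), while the opposite was found in 33 (0.272%). The ranking favours such genes, so that share is a description.

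Without ZT22 replicate 3 or without ZT10 replicate 1 the F test again called 0 genes. First in rank was Cyp2c50 (NM_134144, mm9 chr19:40164169-40188445, plus strand), a cytochrome P450 of the family that oxidizes fatty acids and drugs in hepatocytes. Its values were 43.9, 21.001 and 16.96 RPKTM at ZT4, 30.4, 13.8 and 29.9 at ZT10, 147, 104 and 101 at ZT16 and 254, 237 and 108 at ZT22. Every dark phase library exceeded every light phase library. ZT22 minus ZT10 was 2.95 on the log2(RPKTM + 1) scale (SE 0.44, 95% interval 1.999 to 3.89, adjusted p = 0.0864), and ZT16 minus ZT4 was 2.16 (SE 0.44, adjusted p = 0.927). It was the 1 gene (0.00823%) that passed the test of a 24 h cosine, with a peak at ZT19.6, a peak-to-trough difference of 3.65 on the log2 scale and an adjusted p of 0.0428. That call was lost with a pseudocount of 0.1, and no gene passed the cosine test in 10 of the 12 fits that left out 1 library. The 2 exceptions were the fit without ZT4 replicate 1, with 7 genes, and the fit without ZT22 replicate 3, with 2. Over all genes, 620 (5.1%) had an unadjusted cosine p under 0.05.

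Genes of bile acid synthesis and transport were next among the leading genes. Cyp7b1 (mm9 chr3:17971950-18143338, minus strand), the oxysterol hydroxylase of the alternative pathway of bile acid synthesis, was 62.2, 26.99 and 46.5 RPKTM at ZT4, 40.2, 19.2 and 43.5 at ZT10, 169, 128 and 182 at ZT16 and 264, 214 and 122 at ZT22. The 6 light phase libraries all lay under the 6 dark phase libraries, with an adjusted p of 0.137 by the F test. Slc27a5, the enzyme that activates bile acids for conjugation, was 239, 67.9 and 229 RPKTM at ZT4, 80.2, 125 and 122 at ZT10, 389, 341 and 307 at ZT16 and 684, 629 and 502 at ZT22. It too was higher in every dark phase library (adjusted p = 0.249). Slc10a1, the sodium-dependent transporter that takes bile acids up from the blood, was 68.9, 24.6 and 41.1 RPKTM at ZT4, 35.3, 49.7 and 51.8 at ZT10, 111, 149.9 and 105 at ZT16 and 284, 146 and 126 at ZT22. ZT22 replicate 1 was its highest library, and the dark and light phase libraries again did not overlap (adjusted p = 0.253). Cyp8b1, the sterol hydroxylase that sets the share of cholic acid, was 220.2, 165 and 172 RPKTM at ZT4, 67.4, 193 and 91.1 at ZT10, 162, 262 and 389 at ZT16 and 817, 541 and 425 at ZT22. Its ZT22 libraries exceeded the other 9, whereas ZT16 overlapped ZT4 (adjusted p = 0.317). The differences between ZT22 and ZT10 were 2.52 for Cyp7b1, 2.47 for Slc27a5, 1.92 for Slc10a1 and 2.43 for Cyp8b1 on the log2(RPKTM + 1) scale, with SEs from 0.40 to 0.43.

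Other leading genes belong to multigene families or have little described function. Cyp2c54, Cyp2c67, Cyp2c37 and Cyp2c70 are neighbours of Cyp2c50 on chromosome 19, and their ZT22 minus ZT10 differences were 2.56, 2.202, 1.900 and 1.400 (adjusted p by the F test 0.155 to 0.288). Mup10, Mup22 and Gm2083, which belong to the major urinary protein cluster, lie on the minus strand and share their lower coordinate, chr4:60591133. Their ZT22 minus ZT10 differences were 2.88, 2.89 and 2.94. Reads of such near-identical or overlapping transcripts can be split among copies, so the single members of both families are uncertain and the 3 Mup transcripts amount to 1 observation. Car14, a membrane-bound carbonic anhydrase, was 12.7, 20.01 and 19.8 RPKTM at ZT4, 17.7, 44.4 and 33.5 at ZT10, 58.8, 66.8 and 89.8 at ZT16 and 78.3, 80.4 and 65.8 at ZT22. Each dark phase library of Car14 exceeded each light phase library (adjusted p = 0.222). Capn12, a calpain protease, was lowest at ZT4 with 2.75, 0.75 and 6.27 RPKTM and highest at ZT22 with 31.8, 25.6 and 20.3 RPKTM (adjusted p = 0.354). The remaining leading gene with no description used here, Gm4737, had a ZT22 minus ZT10 difference of 1.597 (adjusted p = 0.249).

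Genes of the extracellular matrix were also among the 20. Bgn, which encodes the proteoglycan biglycan (mm9 chrX:70728940-70741275, plus strand), was 85.8, 71.7 and 82.4 RPKTM at ZT4, 63.5, 62.7 and 97.6 at ZT10, 214, 179 and 171 at ZT16 and 244, 217 and 292 at ZT22. Its dark phase libraries all exceeded its light phase libraries, and ZT22 minus ZT10 was 1.76 (SE 0.29, 95% interval 1.14 to 2.38, adjusted p = 0.0864). Serpinh1, the collagen chaperone HSP47, was 34.2, 15.3 and 21.8 RPKTM at ZT4, 18.7, 11.7 and 18.6 at ZT10, 43.7, 36.3 and 31.9 at ZT16 and 63.5, 59.7 and 69.8 at ZT22. Its ZT22 libraries were the 3 highest, and ZT16 overlapped ZT4 (adjusted p by the F test 0.259). Prelp, a leucine-rich proteoglycan, was 46.1, 35.7 and 44.01 RPKTM at ZT4, 46.8, 49.8 and 59.3 at ZT10, 84.1, 108 and 78.6 at ZT16 and 149.5, 93.9 and 135 at ZT22. Gdf2, which encodes the ligand BMP9, was 16.9, 7.56 and 17.3 RPKTM at ZT4, 18.7, 10.6 and 16.1 at ZT10, 39.1, 36.3 and 34.7 at ZT16 and 41.1, 50.3 and 37.9 at ZT22. Both were higher in every dark phase library than in any light phase library, with adjusted p-values of 0.303 and 0.331. S100a16, a calcium-binding protein, had the same order at lower levels, from 3.90 RPKTM in a ZT10 library to 24.7 RPKTM in a ZT22 library (adjusted p = 0.333).

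**Figure D1:**
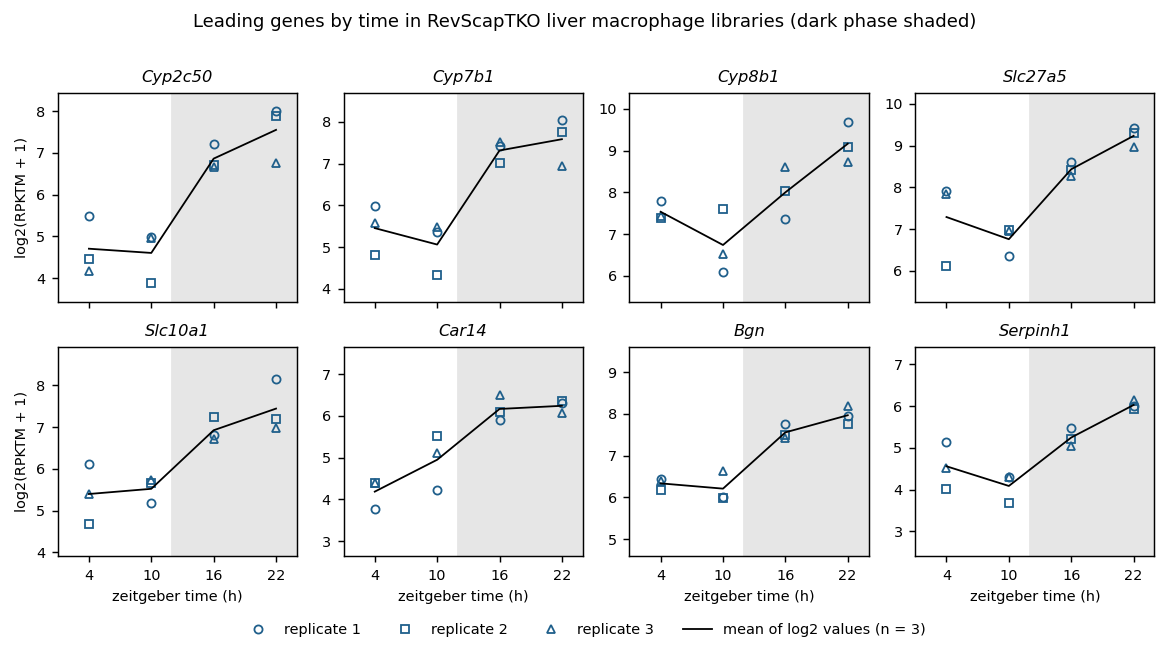
Each panel plots log2(RPKTM + 1) of 1 leading gene against zeitgeber time in hours, with a point for each of the 3 libraries per time, the mean of the log2 values as a line and the dark phase shaded; every panel spans the same number of log2 units. In 6 of the 8 panels every dark phase point lies above every light phase point, while Cyp8b1 and Serpinh1 overlap between ZT4 and ZT16.

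The 20 leading genes were also read in the hepatocyte libraries of this genotype, each by the transcript with the highest mean there. Most had higher levels and smaller differences between ZT22 and ZT10 than in LMs. The genes were picked by their differences among times in these LM libraries, so smaller differences in other libraries are expected from that choice alone. The 20 leading genes had a median hepatocyte minus LM difference of 3.35 on the log2(RPKTM + 1) scale, against 1.11 over all genes tested, and 19 of the 20 were higher in hepatocytes. In hepatocytes Cyp2c50 averaged 1139 ± 1247 RPKTM at ZT4, 2189 ± 918 at ZT10, 1782 ± 897 at ZT16 and 1705 ± 403 at ZT22 (SD, n = 3). Its ZT22 minus ZT10 difference was -0.29 there and 2.95 in LMs. For Slc27a5 the same differences were -0.01 and 2.47, for Slc10a1 -0.03 and 1.92, for Cyp7b1 -0.01 and 2.52, and for Cyp8b1 0.99 and 2.43. For Serpinh1 they were 1.65 and 1.94, and for Prelp 1.18 and 1.24. The tables were normalized apart and share mice at most, so the difference between the cell types was not tested. In LMs of the other genotypes, Cyp2c50 had ZT22 minus ZT10 differences of 1.49 in Control and 1.74 in RevDKO, and the test of a different time course gave an unadjusted p of 0.0895 against Control and 0.206 against RevDKO.

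**Figure D2:**
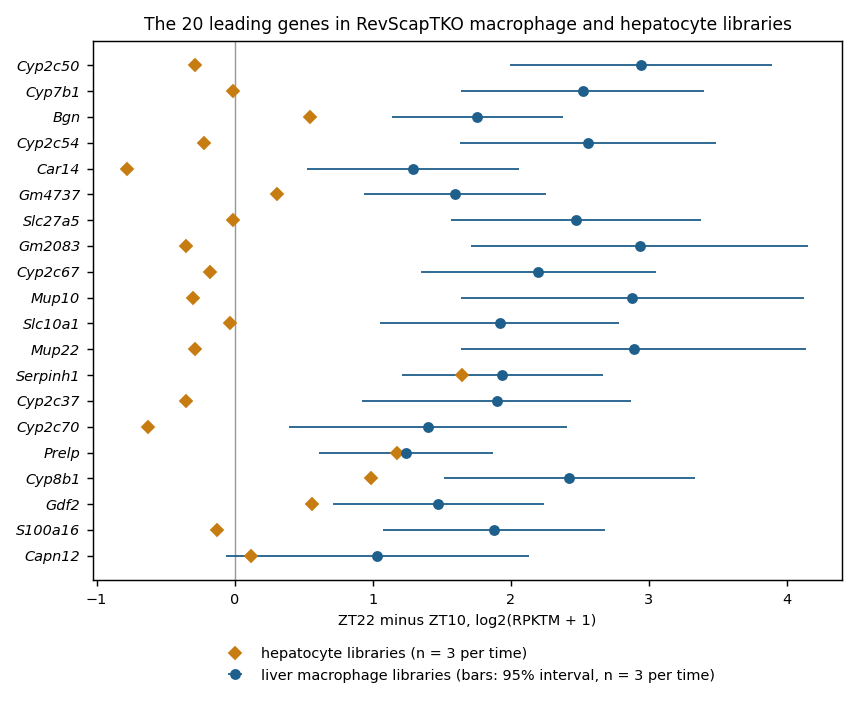
For the 20 leading genes, the ZT22 minus ZT10 difference on the log2(RPKTM + 1) scale is shown for RevScapTKO LM libraries (circles, with the 95% interval as bars) and for RevScapTKO hepatocyte libraries (diamonds, with no interval), 3 libraries per time. The LM values run from 1.04 for Capn12 to 2.95 for Cyp2c50, while the hepatocyte values run from -0.78 for Car14 to 1.65 for Serpinh1. The genes were picked by their differences among times in LMs, so smaller hepatocyte differences are expected from that choice alone.

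Marker lists of the cells that an LM preparation could hold were summed in each library, and their dark minus light differences are descriptions with no test. The summed level of the 20 hepatocyte markers, all of them tested and none at 0 in any library, ranged from 83360 to 133900 RPKTM at ZT4, from 51940 to 141100 at ZT10, from 85610 to 164300 at ZT16 and from 150900 to 1639000 at ZT22, where ZT22 replicate 3 was the highest, with Alb and Trf at 802616 and 793013 RPKTM. All 20 had a higher dark phase than light phase mean and 0 passed the F test. An unadjusted p under 0.05 was found in 5 (Cyp2e1, Apoc3, Serpina1a, Fgg and Fga), or 25%, against 4.63% of all genes. The mean log2 level of the list lay between 8.98 and 10.35 in the light phase libraries and between 10.36 and 11.12 in the dark phase libraries, a difference of 0.78. The dark minus light difference of the 20 leading genes was 1.16 for Prelp to 2.55 for Cyp2c50, and 0.39 to 1.78 after the hepatocyte marker level of the same library was subtracted. The leading genes were picked by their differences among times and the marker list was not, so these values are no comparison of the 2 sets. Without ZT10 replicate 1 and ZT22 replicate 3, the libraries that stood apart, 17 of the 20 hepatocyte markers remained higher in the dark phase (median 0.58, against 0.79 with all libraries), and all 20 leading genes did, with differences of 1.1 for Prelp to 2.84 for Cyp2c50. The part of hepatocyte RNA in the leading genes was not tested.

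The 22 Kupffer cell and macrophage markers had the opposite order. Their summed level was 9746 to 32770 RPKTM at ZT4, 11970 to 48840 at ZT10, 7689 to 28740 at ZT16 and 10620 to 18920 at ZT22, and none was at 0 in any library. A lower dark phase than light phase mean was found in 21 of the 22, with a median of -0.53 on the log2 scale against -0.02 over all genes tested, but 0 had an unadjusted p under 0.05. That order rested on the libraries that stood apart: 18 were lower without ZT10 replicate 1 (median -0.29), 19 without ZT22 replicate 3 (median -0.45) and 13 without both (median -0.18). The 14 endothelial markers summed to 2833 to 3596 RPKTM at ZT4 and 4535 to 6070 RPKTM at ZT22, with 12 of 14 higher in the dark phase. Of them Eng, Dnase1l3, Tek and Oit3 had an unadjusted p under 0.05 (28.6%, against 4.63% of all genes). At ZT10 and ZT16 they summed to 3534 to 5367 RPKTM and 2126 to 5496 RPKTM. Of the 14 stellate cell and fibroblast markers 13 were tested, 13 were higher in the dark phase, and Dcn, Ecm1, Colec11 and Lum had an unadjusted p under 0.05 (30.8%, against 4.63% of all genes). Their sums were 1043 to 1568 RPKTM at ZT4, 1131 to 2132 at ZT10, 1663 to 2224 at ZT16 and 1875 to 2158 at ZT22, and Acta2, the marker of activated stellate cells, was at 0 in 1 library. Without both libraries 13 of 14 endothelial and 9 of 13 stellate cell markers were higher in the dark phase. None of the markers of any list passed the F test.

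Dcn, which encodes the matrix proteoglycan decorin, was 190.2, 220.1 and 114 RPKTM at ZT4, 141, 246 and 197 at ZT10, 557, 445 and 287 at ZT16 and 474, 434 and 272 at ZT22. Eng, the endothelial co-receptor endoglin, was 131, 136 and 154 RPKTM at ZT4, 207, 192 and 166 at ZT10, 229, 247 and 169.7 at ZT16 and 396, 302 and 401 at ZT22. For Dcn every dark phase library exceeded every light phase library, and for Eng the 3 ZT22 libraries exceeded the other 9. Among the smaller lists, the 4 tested erythroid transcripts (Hba-a1, Hbb-b1, Hbb-b2 and Alas2) had all 4 of their highest means at ZT16, and the list summed to 124 to 480.3 RPKTM at ZT4, 153 to 290.0 at ZT10, 292 to 1199 at ZT16 and 266 to 1133 at ZT22. Hba-a1 was 95.3, 119 and 27.5 RPKTM at ZT4, 49.3, 36.8 and 62.7 at ZT10, 263, 74.7 and 279 at ZT16 and 270.1, 73.1 and 113 at ZT22. ZT16 replicate 2 and ZT22 replicates 2 and 3 lay within the range of ZT4, so ZT4 overlapped both dark phase times. All ZT10 libraries of Hba-a1 lay under all of its ZT16 and ZT22 libraries. B cell markers were lower in the dark phase in 6 of 7, with a list sum of 60.7 to 138 RPKTM at ZT4, 85.6 to 149 at ZT10, 42.4 to 66.8 at ZT16 and 54.2 to 129 at ZT22. Of the neutrophil markers, Ly6g, Camp and Ngp were listed at 0 in 10 of 12 libraries each, whereas S100a9 and Csf3r, which other myeloid cells also express, exceeded 5 RPKTM in all 12, and S100a8 and Mmp9 in 7. The cholangiocyte marker Krt19 did not exceed 1.90 RPKTM, and the natural killer cell marker Eomes was listed at 0 in 8. T cell markers summed to 5.04 to 95.7 RPKTM, and 10 of the 13 lists held a marker at 0 in at least 1 library. Of the monocyte-derived macrophage markers 11 of 14 were lower in the dark phase, with Ly6c2 at an unadjusted p under 0.05, as were 5 of 5 dendritic cell, 4 of 5 neutrophil, 3 of 4 natural killer cell and 6 of 9 T cell markers, whereas 3 of 4 platelet markers were higher and the 2 tested cholangiocyte markers split. Without ZT10 replicate 1 and ZT22 replicate 3, the monocyte-derived macrophage markers were 7 higher and 7 lower, the natural killer cell and the platelet markers 2 and 2 each, and the T cell markers 4 and 5. The part of any of these cells in the time courses was not tested.

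**Figure D3:**
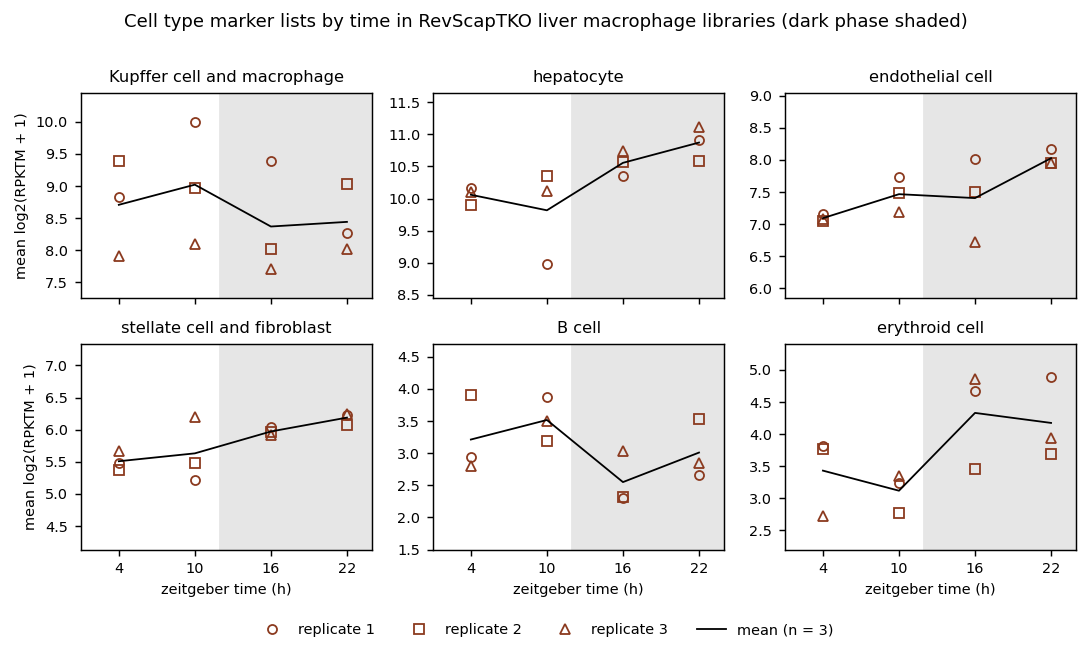
Each panel plots the mean log2(RPKTM + 1) of 1 marker list against zeitgeber time in hours, with a point for each of the 3 libraries per time, their mean as a line and the dark phase shaded; every panel spans the same number of log2 units. The hepatocyte points lie between 8.98 and 10.35 in the light phase and between 10.36 and 11.12 in the dark phase, whereas the Kupffer cell points spread over 7.702 to 10.004 with overlap between all times.

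No clock gene passed the test of a difference among times. All 24 genes of the clock list were tested, 0 were called, and 5 (Usp2, Per3, Bhlhe41 and Tef among them) had an unadjusted p under 0.05 (20.8%, against 4.63% of all genes). Their highest mean of log2 values was at ZT16 in 13 genes, at ZT10 in 6, at ZT4 in 5 and at ZT22 in 0. The dark phase mean was the higher in 15 of the 24 (median 0.05), but in 9 without both libraries that stood apart (median -0.2). Arntl, which encodes BMAL1, was 32.6, 18.3 and 44.2 RPKTM at ZT4, 17.6, 20.5 and 32.6 at ZT10, 13.1, 36.1 and 34.9 at ZT16 and 27.5, 19.5 and 45.4 at ZT22. The libraries of all 4 times overlapped (adjusted p = 0.995), and ZT22 minus ZT10 was 0.34 with a 95% interval of -0.66 to 1.33 on the log2 scale. Nr1d1 was 26.8, 34.8 and 59.5 RPKTM at ZT4, 36.6, 31.6 and 45.3 at ZT10, 33.9, 27.8 and 51.9 at ZT16 and 12.4, 17.7 and 76.2 at ZT22. ZT22 held both its lowest and its highest library (adjusted p = 0.995). Nr1d2 was 57.8, 40.6 and 64.1 RPKTM at ZT4, 104, 47.5 and 61.7 at ZT10, 87.1, 44.97 and 69.6 at ZT16 and 34.1, 71.7 and 14.1 at ZT22. Its times overlapped as well, with ZT22 replicate 3 the lowest of the 12. Clock and Npas2, the partners of BMAL1, had adjusted p-values of 0.995 and 0.995, and Rora, an activator of Arntl, had 0.995.

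The repressor genes Per1, Per2, Per3, Cry1 and Cry2 all had their highest mean of log2 values at ZT16. For Per3 the means of ZT10 and ZT16 were close, at 77.02 and 76.85 RPKTM. Per3 was 26.8, 42.9 and 37.2 RPKTM at ZT4, 43.8, 110 and 77.2 at ZT10, 69.8, 64.4 and 96.3 at ZT16 and 23.6, 36.6 and 44.1 at ZT22. Each ZT16 library exceeded each library of ZT4 and ZT22. ZT16 minus ZT4 was 1.09 on the log2 scale with a 95% interval of 0.28 to 1.903. The limma F test gave Per3 an unadjusted p of 0.0103 and an adjusted p of 0.922. Per2 was 82.9, 54.9 and 80.4 RPKTM at ZT4, 17.1, 104 and 147 at ZT10, 148, 168 and 161 at ZT16 and 59.1, 37.5 and 107 at ZT22. Its ZT16 libraries were the 3 highest, but ZT10 replicate 1 was the lowest of all (unadjusted p = 0.137). Cry1 was 25.5, 13.7 and 16.2 RPKTM at ZT4, 6.83, 28.6 and 32.7 at ZT10, 31.6, 34.8 and 31.1 at ZT16 and 35.4, 10.7 and 24.6 at ZT22. Its ZT16 libraries exceeded those of ZT4 and overlapped the others. Per1 and Cry2 had unadjusted p-values of 0.463 and 0.164, and Ciart, another repressor of CLOCK and BMAL1, had 0.323.

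Tef, a transcription factor of the output group, was 84.04, 64.6 and 133 RPKTM at ZT4, 100, 265 and 177 at ZT10, 209, 159.6 and 182 at ZT16 and 69.7, 89.5 and 129.8 at ZT22. The ZT16 libraries exceeded those of ZT4 and ZT22 (unadjusted p = 0.0363). Its relative Dbp was 15.1, 48.4 and 42.03 RPKTM at ZT4, 35.5, 45.1 and 85.8 at ZT10, 61.1, 22.2 and 70.5 at ZT16 and 6.34, 28.9 and 31.5 at ZT22. All ZT22 libraries of Dbp lay under all ZT10 libraries (unadjusted p = 0.131). Hlf and Nfil3, the third member of that family and the repressor that competes with it, had unadjusted p-values of 0.425 and 0.624. Usp2, a deubiquitinase with a strong clock-driven transcript in many tissues, was 1.80, 8.55 and 5.34 RPKTM at ZT4, 8.10, 14.2 and 14.9 at ZT10, 16.7, 28.6 and 18.5 at ZT16 and 7.89, 7.68 and 17.2 at ZT22. Each ZT16 library exceeded each ZT4 and ZT10 library (unadjusted p = 0.0101).

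Bhlhe41, a repressor that binds the same E-box sites as CLOCK, was 9.13, 4.97 and 4.14 RPKTM at ZT4, 5.75, 6.73 and 6.64 at ZT10, 4.23, 0.204 and 2.40 at ZT16 and 1.80, 0.159 and 0.392 at ZT22. Its ZT22 libraries all lay under those of ZT4 and ZT10, with all 12 values under 10 RPKTM (unadjusted p = 0.013). Its relative Bhlhe40 had an unadjusted p of 0.143. The kinases Csnk1d and Csnk1e and the cell cycle kinase Wee1, an output gene, had unadjusted p-values of 0.636, 0.114 and 0.14.

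**Figure D4:**
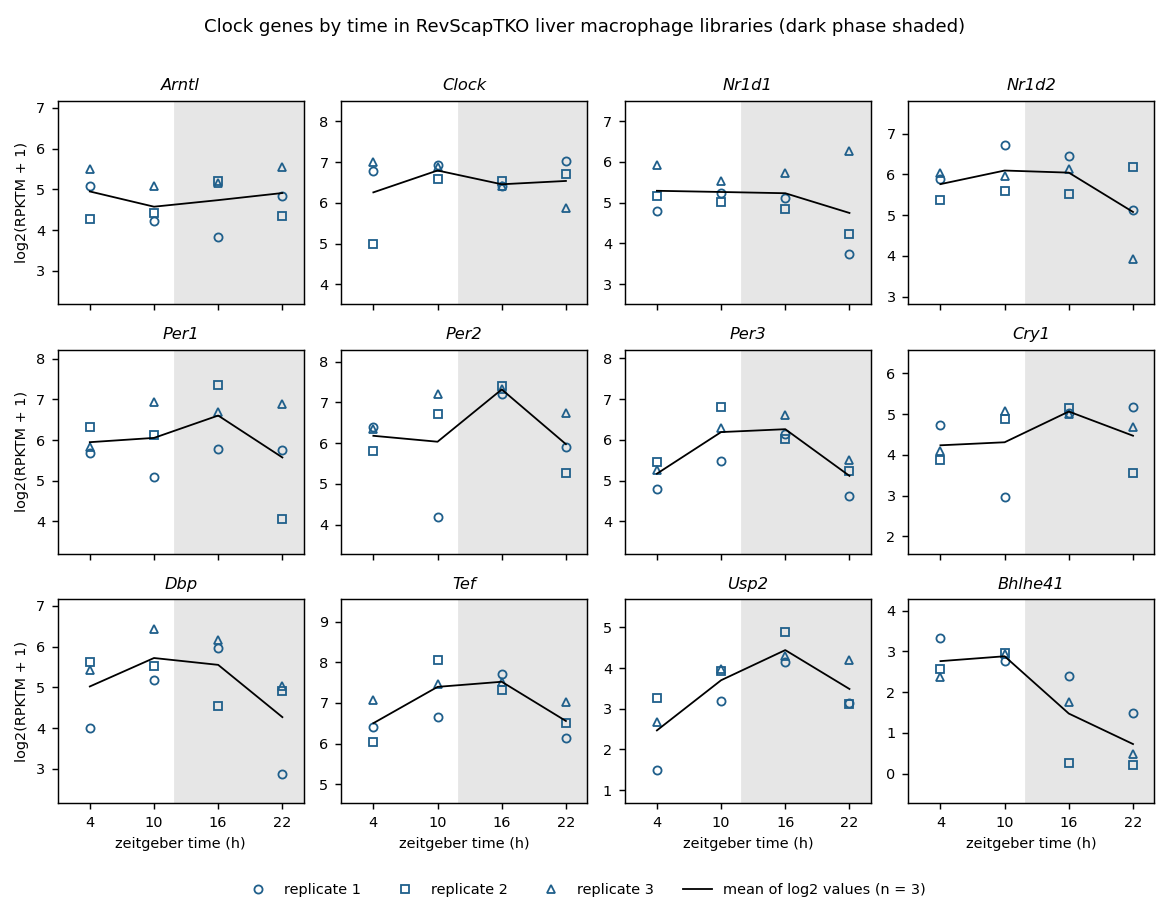
Each panel plots log2(RPKTM + 1) of 1 clock gene against zeitgeber time in hours, with a point for each of the 3 libraries per time, the mean of the log2 values as a line and the dark phase shaded; every panel spans the same number of log2 units. Arntl and Nr1d1 overlap at all times, whereas the ZT16 points of Per3 and Tef lie above those of ZT4 and ZT22. The ZT10 points of Clock lie above its ZT16 points.

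The clock genes were set beside the LMs of the other genotypes in the same table. The range between the highest and the lowest of the 4 time means had a median over the 24 genes of 1.0 on the log2 scale in RevScapTKO LMs, 1.71 in Control LMs and 1.15 in RevDKO LMs, and was smaller in RevScapTKO than in Control for 17 genes and smaller than in RevDKO for 15. Such a range also grows with the spread between libraries. Over all genes tested, the median residual SD was 0.558 in RevScapTKO, 0.59 in Control and 0.708 in RevDKO LMs. An unadjusted F test p under 0.05 was found in 4.63%, 10.5% and 13.1% of genes. The range was not compared over all genes, so the smaller ranges cannot be called particular to clock genes. Nr1d1 averaged 40.4 ± 17.01 RPKTM at ZT4, 37.8 ± 6.91 at ZT10, 37.9 ± 12.6 at ZT16 and 35.4 ± 35.4 at ZT22 in RevScapTKO LMs (SD, n = 3 each). In Control LMs it averaged 89.6 ± 68.5 RPKTM at ZT4, 32.4 ± 8.01 at ZT10, 11.5 ± 7.11 at ZT16 and 8.03 ± 5.53 at ZT22. The difference between the time courses did not pass (limma interaction over 3 time terms, unadjusted p = 0.0188, adjusted p = 0.9999). Dbp in Control LMs averaged 53.5 ± 51.2 RPKTM at ZT4, 50.7 ± 16.5 at ZT10, 17.99 ± 12.1 at ZT16 and 2.13 ± 0.986 at ZT22, and its interaction had an unadjusted p of 0.00984. Per3 and Cry1 had interactions with unadjusted p-values of 0.0145 and 0.0174, and Arntl one of 0.177. No clock gene passed the adjusted threshold in the comparison with Control or with RevDKO.

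Across all genes, 0 of 12153 (0%) had a time course that differed between RevScapTKO and Control LMs at an adjusted p under 0.05 by limma, and 194 (1.6%) had an unadjusted p under 0.05. Against RevDKO the counts were 0 (0%) and 443 (3.65%). With the same F test on 12 libraries, 215 of 12925 genes (1.66%) were called in RevDKO LMs and 0 of 12180 in Control LMs (1284 with an unadjusted p under 0.05). Because the interaction called 0 genes, the count of 0 in RevScapTKO and of 215 in RevDKO does not show that the genotypes differ. The 5 genes with the smallest interaction p against Control included Ccdc130, Ltbp4, Fasn and Ramp2, with unadjusted p-values from 0.000982 to 0.00375. Fasn, which encodes fatty acid synthase, averaged 82.2 ± 15.6 RPKTM at ZT4, 94.9 ± 38.6 at ZT10, 146 ± 53.7 at ZT16 and 152 ± 81.01 at ZT22 in RevScapTKO LMs. In Control LMs it averaged 1461 ± 317 RPKTM at ZT4, 3619 ± 1374 at ZT10, 2101 ± 1137 at ZT16 and 944 ± 601 at ZT22. Its level at each time was lower in RevScapTKO, which is a difference between genotypes and not between times. The 5 genes with the smallest p against RevDKO were F9, Fmc1, Rpgrip1, Me1 and Prepl (0.000278 to 0.000653). F9, which encodes coagulation factor IX made by hepatocytes, averaged 96.8 ± 28.2 RPKTM at ZT4, 55.1 ± 13.2 at ZT10, 142 ± 56.5 at ZT16 and 218 ± 104 at ZT22 in RevScapTKO and 23.2 ± 19.5 RPKTM at ZT4, 112 ± 39.2 at ZT10, 208 ± 40.05 at ZT16 and 363 ± 87.3 at ZT22 in RevDKO LMs. Me1, the malic enzyme that supplies NADPH to fatty acid synthesis, averaged 14.9 ± 1.98 RPKTM at ZT4, 13.6 ± 1.29 at ZT10, 17.4 ± 15.1 at ZT16 and 13.5 ± 7.59 at ZT22 in RevScapTKO LMs. In RevDKO LMs it averaged 12.3 ± 2.59 RPKTM at ZT4, 20.2 ± 10.9 at ZT10, 77.1 ± 21.2 at ZT16 and 130.4 ± 54.2 at ZT22.

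Gene lists of lipid metabolism were described by their counts and their median dark minus light difference, the mean of ZT16 and ZT22 minus that of ZT4 and ZT10, which was -0.02 over all genes tested on the log2(RPKTM + 1) scale. No member of any list passed the F test. Of 22 genes of cholesterol synthesis and uptake 19 were tested, 14 were higher in the dark phase (median 0.14, or 0.23 without both libraries that stood apart), and 0 had an unadjusted p under 0.05. Cyp51, which demethylates lanosterol in that pathway, had an unadjusted p of 0.0991. Of 17 tested genes of fatty acid synthesis (median 0.15), Thrsp had an unadjusted p of 0.0216. Thrsp, a small protein that promotes lipogenesis, was 8.86, 4.19 and 2.43 RPKTM at ZT4, 8.80, 22.3 and 60.5 at ZT10, 72.3, 111 and 18.3 at ZT16 and 31.2, 1.86 and 34.6 at ZT22. Its ZT16 libraries exceeded those of ZT4 and overlapped ZT10 and ZT22. Of the 12 LXR targets 5 were higher and 7 lower in the dark phase (median -0.02), but 8 were higher and 4 lower without both libraries that stood apart (median 0.14), and their smallest p-values belonged to Mylip (0.14), which degrades the LDL receptor, and Plin2 (0.187), a lipid droplet coat protein.

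The 20 genes of fatty acid oxidation and fasting had the highest median of the pathway lists, 0.40, with 17 higher in the dark phase (15 without both libraries, median 0.29) and 2 at an unadjusted p under 0.05. Angptl4, an inhibitor of lipoprotein lipase, was 43.03, 52.9 and 62.03 RPKTM at ZT4, 20.3, 16.9 and 58.5 at ZT10, 44.1, 123 and 87.9 at ZT16 and 60.2, 61.01 and 169 at ZT22. Its ZT22 libraries exceeded those of ZT10, and the other pairs of times overlapped (unadjusted p = 0.0295). Cyp4a10, a fatty acid hydroxylase of hepatocytes, was 1.88, 2.02 and 1.55 RPKTM at ZT4, 0.656, 0.827 and 0.528 at ZT10, 0.32, 7.11 and 1.49 at ZT16 and 6.51, 13.3 and 6.53 at ZT22. Its ZT22 libraries exceeded those of ZT4 and ZT10, at low levels (unadjusted p = 0.0189). Genes of the mitochondrial respiratory chain were higher in the dark phase in 28 of 33 (median 0.21), with 0 at an unadjusted p under 0.05, and in 31 of 33 without ZT10 replicate 1 and ZT22 replicate 3 (median 0.40, against 0.0 over all genes). Uqcrc1 and Ndufv1, subunits of complexes III and I, had the smallest p-values, 0.0714 and 0.0946. Of 20 glycolysis genes 9 were higher and 11 lower (median -0.06), which turned to 11 and 9 without both libraries that stood apart (median 0.08), and Hk1, a hexokinase, had an unadjusted p of 0.0398, while Pfkfb4 had 0.108. Of 18 iron and heme genes 10 were higher and 8 lower, with Trf, the plasma iron carrier transferrin, at 793013 RPKTM in ZT22 replicate 3 and at 9221 to 33320 RPKTM elsewhere (unadjusted p = 0.0778), and Fth1, a ferritin subunit, at 0.183.

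Stress genes followed. Of 20 heat shock and cold-inducible genes 15 were higher in the dark phase (median 0.17, or 0.32 without both libraries that stood apart) and 1 had an unadjusted p under 0.05. Hsph1, a chaperone of the HSP110 family, was 43.2, 43.5 and 37.7 RPKTM at ZT4, 41.4, 26.5 and 32.3 at ZT10, 64.4, 52.1 and 45.99 at ZT16 and 82.7, 61.2 and 101 at ZT22. Every dark phase library exceeded every light phase library (unadjusted p = 0.00617, adjusted p = 0.853). Dnajb1, its co-chaperone, had an unadjusted p of 0.11. Of 18 genes of the unfolded protein response 15 were higher in the dark phase (median 0.33). Hyou1, a chaperone of the endoplasmic reticulum, was 852, 418 and 740 RPKTM at ZT4, 126, 415 and 411 at ZT10, 627, 672 and 697 at ZT16 and 965, 543 and 888 at ZT22. ZT10 replicate 1 was the lowest library, and the ZT16 and ZT22 libraries exceeded those of ZT10 (unadjusted p = 0.0228). Pdia6, a disulfide isomerase, had 0.0554. Ribosomal protein genes were higher in the dark phase in 47 of 64 (median 0.14), with Rpl10 at an unadjusted p of 0.0295 and Rps10 at 0.0547. Many ribosomal protein genes share reads with pseudogenes, and 18 of the 82 in the table did not pass the filter, Rps13 for one with a highest value of 2.88 RPKTM.

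Immediate early genes were lower in the dark phase in 13 of 18 (median -0.21). Egr1, a transcription factor induced within minutes of stimulation, was 23.2, 32.4 and 44.7 RPKTM at ZT4, 6.21, 11.5 and 8.86 at ZT10, 5.93, 2.13 and 15.6 at ZT16 and 9.08, 23.1 and 50.96 at ZT22. Its ZT4 libraries exceeded those of ZT10 and ZT16, and ZT22 overlapped all of them (unadjusted p = 0.00859). Btg2, an antiproliferative factor, was 45.3, 67.99 and 52.2 RPKTM at ZT4, 44.3, 35.5 and 28.7 at ZT10, 18.6, 8.78 and 33.9 at ZT16 and 40.1, 40.6 and 33.3 at ZT22. Its ZT16 libraries all lay under its ZT4 libraries (unadjusted p = 0.0131). Among 16 glucocorticoid response genes 11 were higher in the dark phase (median 0.08), against 8 without ZT10 replicate 1 (median 0.02). Fkbp5, a co-chaperone of the glucocorticoid receptor, was 62.6, 63.4 and 66.96 RPKTM at ZT4, 59.3, 49.9 and 57.1 at ZT10, 152, 289 and 92.1 at ZT16 and 98.95, 62.4 and 140 at ZT22. The ZT16 libraries exceeded those of ZT4 and ZT10 (unadjusted p = 0.00854). Ddit4, an inhibitor of mTORC1, had an unadjusted p of 0.00736 and was highest in ZT16 replicate 2, at 60.8 RPKTM.

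Immune gene lists had lower dark phase than light phase means over the 12 libraries, in the direction of the Kupffer cell markers, and part of that rested on single libraries. The 9 tested MHC class II genes were all lower (median -0.47), as were 21 of 22 interferon-stimulated genes (median -0.35), 17 of 21 genes of pattern recognition and complement (median -0.41), 21 of 27 of lysosome and phagocytosis (median -0.23) and 14 of 19 inflammatory mediators (median -0.24). Of these only Nlrp3, the inflammasome sensor, had an unadjusted p under 0.05 (0.0332), at 21.2, 39.7 and 19.1 RPKTM at ZT4, 40.6, 24.1 and 25.1 at ZT10, 16.7, 12.8 and 8.72 at ZT16 and 22.1, 18.7 and 23.3 at ZT22. Its ZT16 libraries lay under all libraries of the other times. Without ZT10 replicate 1 and ZT22 replicate 3, 8 of 9 MHC class II genes (median -0.3) and 16 of 22 interferon-stimulated genes (median -0.29) were lower in the dark phase, but only 12 of 21 of pattern recognition and complement (median -0.04), 13 of 27 of lysosome and phagocytosis (median 0.04) and 8 of 19 inflammatory mediators (median 0.12). Marco, a scavenger receptor of Kupffer cells, was 218, 566 and 134 RPKTM at ZT4, 229, 259.6 and 105 at ZT10, 163, 70.1 and 124 at ZT16 and 386, 625 and 159 at ZT22. It varied about as much among the libraries of ZT4 as between times (unadjusted p = 0.0847). Oas2 and Rsad2, antiviral genes induced by interferon, had unadjusted p-values of 0.0728 and 0.184, H2-Ob and Ciita, of antigen presentation, 0.062 and 0.395, Gaa and Gas6 0.112 and 0.146, Cxcl1 0.0748 and Itgam 0.261. Cell cycle genes were lower in the dark phase in 16 of 22 (median -0.15), with Mcm2 at an unadjusted p of 0.176 and Mki67 at 0.25, and in 9 of 22 without both libraries (median 0.09). Il6, Nos2, Ptgs2 and Cxcl2 did not pass the filter, with medians of 0.0275, 0.356, 0.204 and 2.29 RPKTM.

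**Figure D5:**
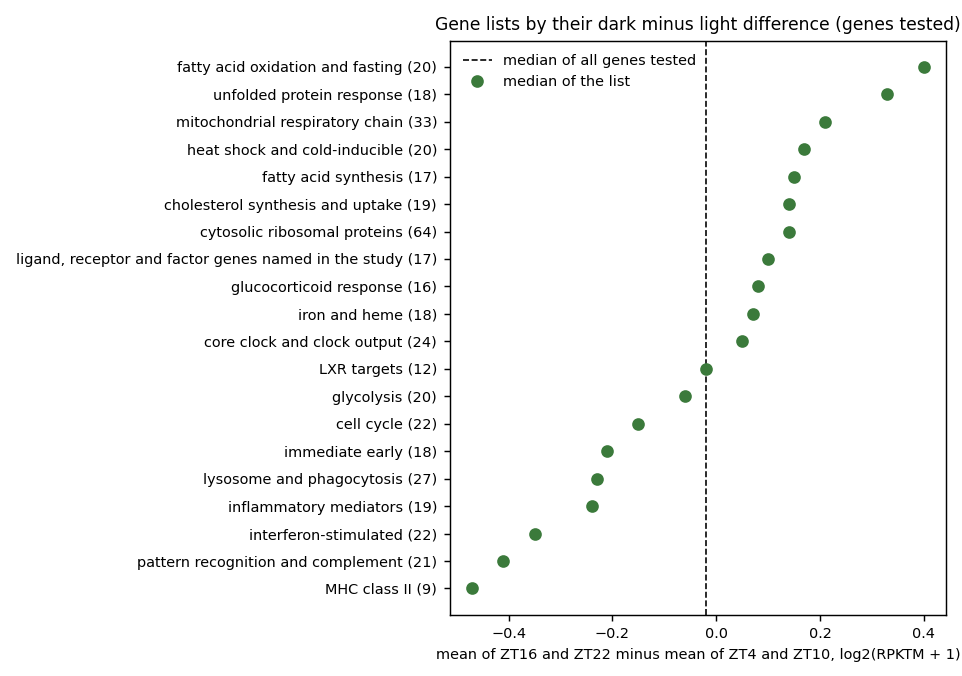
For each pathway list, with the number of its tested genes in parentheses, the median of the mean of ZT16 and ZT22 minus the mean of ZT4 and ZT10 is plotted on the log2(RPKTM + 1) scale, beside the median of all genes tested as a dashed line at -0.02. The medians run from -0.47 for MHC class II to 0.40 for fatty acid oxidation and fasting, and no member of any list passed the F test. The plot holds all 12 libraries: without ZT10 replicate 1 and ZT22 replicate 3 the medians of the clock, inflammatory, lysosome, cell cycle, glycolysis and LXR lists change sign.

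The ligand, receptor and factor genes that the study discusses were tested in 17 of 18 cases, and 0 had an unadjusted p under 0.05. The dark phase mean was the higher in 10 of 17 (median 0.1, or 0.01 without both libraries that stood apart). The study picked some of these genes from its own hepatocyte and LM time courses, so that they are not independent evidence. Others, such as Nr1d1, Nr1d2 and Scap, were the deleted genes. It names the ligands as signals from hepatocytes, whereas the p-values here are of LM libraries and do not test that. The ligand genes Bmp5, Inhba, Tnfsf12 and Pdgfd had unadjusted p-values of 0.288, 0.113, 0.567 and 0.147, and the receptor genes Bmpr1a and Pdgfrb 0.939 and 0.895. Among the transcription factors, Myc was 27.6, 25.9 and 58.3 RPKTM at ZT4, 17.9, 35.98 and 58.1 at ZT10, 8.14, 17.6 and 21.7 at ZT16 and 24.3, 20.8 and 21.3 at ZT22. Its ZT16 libraries lay under those of ZT4 and overlapped ZT10 and ZT22 (unadjusted p = 0.0725). Srebf1, Srebf2 and Jund had unadjusted p-values of 0.779, 0.866 and 0.638, Insig2, which retains SCAP in the endoplasmic reticulum, 0.356, and Eno1, the glycolytic enolase, 0.192. Vdr, the vitamin D receptor, did not pass the filter, with a highest value of 1.86 RPKTM.

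JTK_CYCLE, a rank test for periodic patterns, was also run, since it is the test named in the study's methods. With the series of 12 libraries entered 2 times in a row, 1868 of 12153 genes (15.4%) were called rhythmic with a ratio of highest to lowest time mean over 1.5. That repetition follows the study's methods and lowers every p without adding data. Entered once, the same criteria called 220 genes (1.81%), and with Benjamini-Hochberg adjustment over genes 0 remained (smallest adjusted p = 1). A rank test of 12 values has coarse p-values. Cyp2c50, with every dark phase library above every light phase library, had a JTK_CYCLE p of 0.0152 in the series entered once. With p-values this coarse no gene of 12153 can pass such an adjustment unless many share the smallest p, so the count of 0 says little about single genes. Of the 1868, 1042 peaked from ZT16 to ZT22, with 506 at ZT19, and 616 peaked from ZT4 to ZT10, with 298 at ZT7. Among the 24 clock genes 7 were called (Usp2, Per2, Per3, Tef, Bhlhe40 and Bhlhe41 among them, or 29.2% against 15.4% of all genes), and 2 with the series entered once, Usp2 and Bhlhe41, with peaks at ZT16 and ZT7. Per3 and Tef had a peak at ZT13 in the repeated series. Of the 20 hepatocyte markers 13 were called from the repeated series and 4 from the series entered once, and of the 22 Kupffer cell markers 0 by either. In the unfolded protein response list 9 of 18 genes were called from the repeated series and 0 from the series entered once, and in the fatty acid oxidation and fasting list 9 of 20 and 0. In MHC class II 0 of 9 and in pattern recognition and complement 0 of 21 were called by either.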

How the data were processed

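RNA from liver macrophages and hepatocytes was sequenced by the authors after ribosomal RNA depletion, with stranded libraries. Reads were aligned to mm9 with STAR and counted over RefSeq transcripts with HOMER (versions not given in the sources used here). The deposited values are RPKM-type values, reads per kilobase per 10000000 reads (RPKTM), quantile normalized by the authors, so depth is unknown and no count test was possible. Whether counting used strand is not given in the sources used here.

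The transcript with the highest mean stood for each symbol, a gene needed more than 5 RPKTM in 3 of 12 libraries, and log2(RPKTM + 1) was tested with limma 3.58.1 in R 4.3.3 (moderated F test with a mean-variance trend, Benjamini-Hochberg adjustment, two-sided). Pairs of times and a 24 h cosine were tested in fits of the same 12 libraries, and genotype by time interactions in all 36. JTK_CYCLE was rewritten in Python 3.11.15 with periods of 18 and 24 h. A dark minus light difference was added after the data were seen, with and without the libraries that stand apart, and has no test. Code was tested on simulated data. The libraries and gene lists were chosen with earlier results of these data known. Genes were named by rule: the 20 smallest F test p, the 2 smallest of each pathway list, every clock gene, the genes named in the study and the 5 smallest interaction p of each kind, of which a few are not reported here; marker genes are named where their unadjusted p was under 0.05, they define a cell type or were at 0. Promoters were to be printed for clock genes past the F test, of which there were none. Alternatives were other pseudocounts, no filter, all transcripts, all 36 libraries, a replicate block and leaving out each library.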

Additional observations from a re-analysis of the deposited data

How the results depend on the processing

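With 3 libraries per time and unknown depth, these counts near 0 move with the settings. The F test called 1 gene without the filter on low values (Mycbpap), 9 with all 36 LM libraries in the fit and 10 with a replicate block (Gm2083, Mup22, Mup10, Cyp2c50, Cyp7b1, Ttc39aos1, Cyp2c54, Bgn, Mup11 and Car14), and 0 in each of the 12 fits without 1 library. ZT22 against ZT4 gave 1 gene without the filter, 1 over all transcripts, 1 with all 36 libraries and 10 with the replicate block. ZT22 against ZT10 gave 1 without the filter, 6 with all 36 libraries, 10 with the replicate block and 0 to 1 when 1 library was left out (1 without ZT4 replicate 2). ZT22 against ZT16 gave 1 without the filter. The cosine test called 0 genes with a pseudocount of 0.1, 4 with 10, 2 without the filter, 5 over all transcripts, 13 with all 36 libraries, 17 with the replicate block and 0 to 7 when 1 library was left out. The interaction with RevDKO called 1 gene without the filter. JTK_CYCLE called 220 genes with the series entered once, 0 after Benjamini-Hochberg adjustment, 3573 over all transcripts and 1565 to 2012 when 1 library was left out. The cause was not tested. Of the other test results recomputed under these settings, 2413 kept their side of the threshold or, for lists, their count. The remaining 17, all of single genes, passed the threshold under an alternative. No gene passed the F test in the main fit, so none could lose a call, and directions were not compared. Dark minus light medians, which have no test, did turn for some lists without ZT10 replicate 1 and ZT22 replicate 3, as given beside them. The block rests on replicate numbers alone: deviations from the time means correlated between same-numbered libraries at -0.175 to 0.562 (median 0.152, 18 pairs), against a median of -0.045 for other pairs, and 10 of 12 libraries correlated best with a library of their own number, a hint from the data and not from the design. Of the genes called with the block and with all 36 libraries, 6 were shared.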

Other observations

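Long nuclear noncoding transcripts were looked at after their values had been seen, and these are given as values. Malat1 was 23849, 73347 and 73347 RPKTM at ZT4, 19121, 33320 and 33320 at ZT10, 11332, 12114 and 19121 at ZT16 and 6495, 7201 and 10488 at ZT22, and the ZT22 libraries lay under all others (limma F test, adjusted p = 0.429). Equal values of Malat1 are shared ranks of the quantile normalization. Kcnq1ot1, the antisense transcript of the imprinted Kcnq1 locus, was 326, 832 and 774 RPKTM at ZT4 and 194, 145 and 108 RPKTM at ZT22 (adjusted p = 0.853). Neat1, the scaffold of paraspeckles, had an adjusted p of 0.995 and its lowest library at ZT22, with 788 RPKTM. The Mup transcripts, Cyp2c50 and Bgn, by contrast, had their highest means at ZT22.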
